A study of Mus musculus with 234 samples.

Results

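Glucose uptake and glycolysis were followed through 10 genes, chosen by name: the glucose transporters Slc2a1 and Slc2a4, the hexokinases Hk1 and Hk2, the enzymes Pfkm, Aldoa, Pgk1 and Pkm, and the lactate dehydrogenase subunits Ldha and Ldhb. They filled 11 of the 55538 rows of the count table, of which 23664 had a count in at least 1 cell, because Aldoa was listed 2 times. The second Aldoa row held 2 counts in 1 cell and was left aside. All 10 genes passed the filter on low counts in each of the 3 tested comparisons, so no member was lost to it. Levels came from SMART-seq2, a full-length mRNA method for single cells, applied to 234 hand-picked cardiomyocytes (CMs) of 5 mice.

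Control CMs came from mice M26 (24 cells) and M73 (9 cells), whose titles give wt and whose strain label is C57BL/6. The study's methods define its controls more widely, as siblings that were wild type or carried either PGK-Cre or the floxed transgene alone. The label PGKcre:BAG3P209L_homo covered mice M25 (21 bright and 18 dim CMs) and M116 (59 bright and 50 dim CMs), and the label PGKcre:BAG3P209L_het covered mouse M72 (27 bright and 26 dim CMs). These mice carry human BAG3 with the P209L substitution fused to eGFP, under the ubiquitous CAG promoter, after a Cre driven by the Pgk1 promoter has removed a STOP cassette. Cre is thus not limited to CMs, and the homozygous group holds 2 transgene alleles of which 1 or both had lost the STOP cassette. Bright and dim refer to eGFP fluorescence seen under a macroscope, and in each transgenic mouse both classes come from the same heart. The mice of the study were 2 weeks old on a mixed background, and the age of mouse M72 was not given in the sources used here. The plate names in the titles form a pair of series, called plate series 1 (mice M25 and M26, on the same plate) and plate series 2 (mice M72, M73 and M116) below. Mouse M73 shared a plate with mouse M72 and not with mouse M116, and the labels do not say whether the series were sequenced separately.

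Glucose enters a CM through Slc2a4 (GLUT4), which insulin and contraction bring to the surface, and through the constitutive Slc2a1 (GLUT1), the main fetal transporter. Hexokinase phosphorylates it, phosphofructokinase commits it to glycolysis, and aldolase, phosphoglycerate kinase and pyruvate kinase lead to pyruvate. Lactate dehydrogenase, a tetramer of Ldha and Ldhb subunits, interconverts pyruvate and lactate, and the heart is known for its richness in Ldhb. Around birth the heart moves from glucose and lactate towards fatty acids as fuel, and Hk2 and Slc2a4 gain ground over Hk1 and Slc2a1.

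Cells were summed per mouse and brightness class, giving 8 sums of 4096609 to 40508124 counts from cells with a median of 711527 counts, and 15 cells had under 1000 genes detected. The 8 CM markers were present in every sum, at 60211 to 77258 summed CPM, that is counts scaled to a library of 1000000. Human BAG3 reads stood at 0.408 and 0.488 CPM in the control mice, at 294 CPM (M25) and 233 CPM (M116) in homo_bright CMs, and at 10.7 and 99.6 CPM in homo_dim CMs of the same mice. In mouse M72 the order went against the labels, with 105 CPM in the CMs labelled het_bright and 251 CPM in those labelled het_dim. Fibroblast markers reached 2238 CPM in homo_bright CMs of mouse M25, of which 90.2% came from 1 well, against 22.9 to 468 CPM in the other sums. Endothelial markers summed to 153 to 450 CPM, immune markers to 0.264 to 58.2 CPM and pericyte and smooth muscle markers to 25.5 to 133 CPM. Erythroid markers lay between 0.173 and 4.02 CPM except in homo_dim CMs of mouse M25 (345 CPM) and het_bright CMs (987 CPM). Immediate-early genes, which tissue dissociation can induce, summed to 165 and 151 CPM in the control mice, 250 to 827 CPM in the homozygous sums and 358 and 430 CPM in mouse M72. All 4 Y-linked genes examined had counts in both sums of mouse M72, and at most 2 of them in any other sum.

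The 10 genes together took 0.825% and 0.491% of all counts in the control mice M26 and M73, and 0.668% to 0.734% in the 4 homozygous sums. The heterozygous sums stood at 0.532% and 0.536%. The control mice thus bracketed every other sum. To compare genes with each other, CPM were divided by coding exon length in kilobases (GENCODE M21 basic annotation). On that scale the order was Aldoa, Ldhb, Ldha, Pkm, Pfkm, Pgk1 and Slc2a4 in every sum, with Slc2a1 last. Hk1 and Hk2 held ranks 8 and 9 between them and exchanged places between sums. Median levels over the sums ran from 1530 CPM per kilobase for Aldoa and 1191 for Ldhb down to 18.1 for Hk2, 12.8 for Hk1 and 1.22 for Slc2a1. The ranges over the sums did not overlap between Ldhb and Ldha, between Ldha and Pkm, and between Hk1 and Slc2a1. All other neighbours in that order overlapped in range although they kept their order within each sum, the hexokinases excepted.

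Levels of a gene across the 8 sums are given below as TMM-normalised CPM, which correct each sum for its composition. The test between groups was edgeR's quasi-likelihood test over the sums, with Benjamini-Hochberg adjustment over all genes and a threshold of 0.05. Each group had 2 mice, and log2 fold changes are given ± SE. Because fewer expressing cells and less RNA per cell cannot be told apart in a sum, cell-level values are given after the sums.

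**Figure D1:**
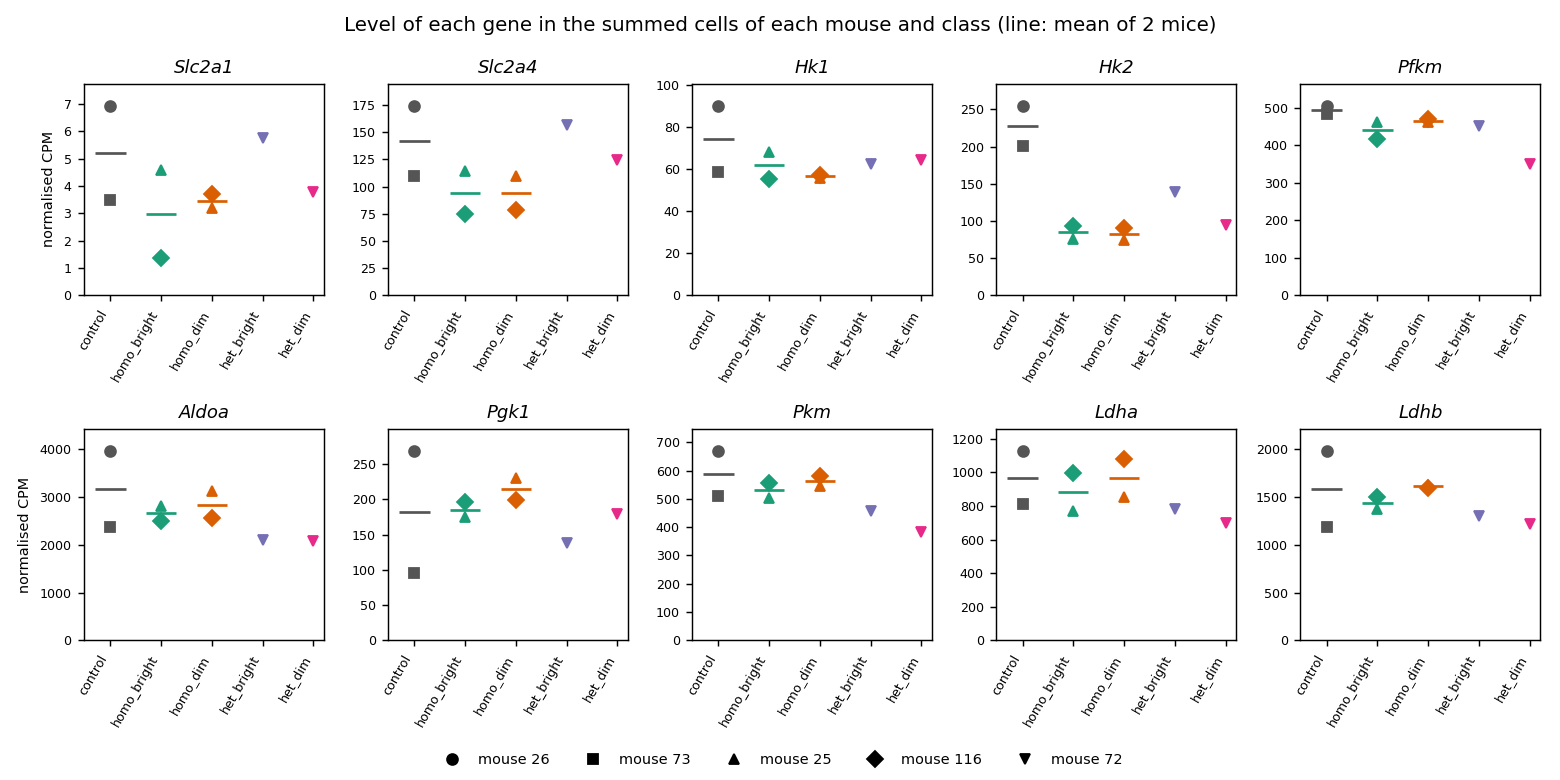
Normalised CPM of each gene (y axis, from 0) for the 5 labels (x axis), with 1 symbol per mouse and a line at the mean of 2 mice. Hk2 is the gene whose control mice, at 254 and 201, stand farthest above every transgenic sum, of which the highest is 139.

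Hk2, the insulin-responsive hexokinase of adult muscle, was the member with the largest difference between homozygous and control CMs. Its normalised level was 254 CPM in control mouse M26 and 201.0 CPM in control mouse M73. Homo_bright CMs stood at 76.1 CPM (M25) and 92.8 CPM (M116), and homo_dim CMs at 73.9 and 91.0 CPM. Both homozygous mice were below both control mice in each class, and the bright and dim CMs of a mouse were nearly level. The group means were 228 ± 37.6 CPM in control, 84.4 ± 11.8 CPM in homo_bright and 82.5 ± 12.1 CPM in homo_dim CMs (SD, n = 2 mice each).

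The log2 fold change of Hk2 was -1.45 ± 0.33 in homo_bright against control CMs, with an unadjusted p of 0.0043 and an adjusted p of 0.66 in edgeR. In homo_dim against control CMs it was -1.48 ± 0.35, with an unadjusted p of 0.0041 and an adjusted p of 0.73 in edgeR. Hk2 therefore did not pass the threshold in edgeR, which called 2 of 12203 genes (0.0164%) in bright CMs and 0 of 12195 (0%) in dim CMs, where DESeq2 called 53 and 759 genes lay under an unadjusted p of 0.05. At an unadjusted p under 0.05, Hk2 was the only member below control in either comparison, where 1.85% and 1.83% of all genes were. DESeq2 gave Hk2 an adjusted p of 0.039 in bright and 0.044 in dim CMs, among 0.754% and 0.435% of genes called. Both comparisons use the same control sums, so they are not independent. Over the 12 alternatives with a test, the log2 fold change of Hk2 stayed below 0, between -1.60 and -0.97 in bright CMs and between -1.65 and -0.72 in dim CMs, with adjusted p from 0.039 and 0.044 up to 1.0. Summed immediate-early genes were higher in each homozygous sum than in both control mice, and their part in the Hk2 difference was not tested. The summed CM markers were lower in each homozygous sum, at 67745 and 61349 CPM in bright and 70657 and 60211 CPM in dim CMs of mice M25 and M116, than in the control mice, at 77258 and 71537 CPM. Of the 8 markers, 6 had both mice below both control mice in bright and 5 in dim CMs, and none had both above. Their part in the Hk2 difference was not tested either. The Hk2 difference was -1.12 in bright CMs and -1.15 in dim CMs without the 77 of 234 cells that held at least 100 CPM of another cell type's markers.

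The lower Hk2 level held within each plate series. Mouse M25 against mouse M26, in plate series 1, gave a log2 difference of -1.72 in bright and -1.78 in dim CMs. Mouse M116 against mouse M73, in plate series 2 but on other plates, gave -1.17 in both classes. In single CMs the median Hk2 level was 160 CPM for M26 (range 0 to 662) and 117 CPM for M73 (0 to 312). It was 65.2 CPM (0 to 225) and 76.0 CPM (0 to 461) in bright CMs (M25, then M116), and 43.9 CPM (1.02 to 239) and 73.4 CPM (0 to 2094) in their dim CMs. The 0 values of both control mice came from cells under 100000 counts, as did the 2094 CPM, which was 2 counts in 1 cell. In deeper cells Hk2 was lowest at 64.5 CPM in M26 and 35.9 CPM in M73. Its highest level in deeper dim CMs of M116 was 317 CPM. Cell ranges thus still overlapped without these shallow cells, while the medians over all cells kept the order of the sums. After each cell was thinned to 100000 counts, leaving out 20 shallower cells, Hk2 was detected in 20 of 20 and 8 of 8 control CMs, 16 of 21 and 48 of 52 bright CMs, and 14 of 18 and 44 of 48 dim CMs.

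Hk1, the widely expressed hexokinase that prevails in the fetal heart, did not pass any threshold. Its level was 89.9 and 58.6 CPM in the control mice M26 and M73, 68.2 and 55.4 CPM in homo_bright and 56.0 and 57.4 CPM in homo_dim CMs of mice M25 and M116. The log2 fold change was -0.28 ± 0.41 in bright and -0.41 ± 0.42 in dim CMs (adjusted p = 0.96 and 1.0, edgeR). In bright CMs it moved to 0.02 with scaling to library size in place of TMM. The dim CMs of both mice lay below both control mice by a small margin, and the bright CMs overlapped them.

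The balance between the hexokinases lay further towards Hk1 in all homozygous sums than in either control mouse. Hk1 and Hk2 are separate genes, and their ratio within a sum does not depend on the scaling between libraries. Hk1 supplied 26.1% of Hk1 plus Hk2 counts in control mouse M26 (exact Clopper-Pearson 95% interval 25.05 to 27.3, covering counting error of reads only, as for all intervals here) and 22.6% in mouse M73 (19.9 to 25.5). In homo_bright CMs the share was 47.3% in mouse M25 (45.4 to 49.1) and 37.4% in mouse M116 (36.2 to 38.5), and in homo_dim CMs 43.1% (41.2 to 45.1) and 38.7% (37.4 to 40.0). All 4 homozygous shares lay above both control shares. Per coding length, Hk1 made up 29.1% and 25.2% in control, 50.9% and 40.8% in bright and 46.7% and 42.2% in dim CMs.

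The log2 ratio of Hk1 to Hk2 was -1.64 ± 0.20 in control, -0.45 ± 0.42 in homo_bright and -0.53 ± 0.19 in homo_dim CMs (SD, n = 2 mice). It was higher by 1.19 in bright and by 1.11 in dim CMs than in control (2-sided exact permutation test over mice, p = 0.33 in each, the smallest p that 2 against 2 mice allow). The differences within plate series were 1.34 and 1.03 for bright and 1.10 and 1.11 for dim CMs. Bright and dim CMs of 1 mouse differed by 0.24 in mouse M25 and by -0.08 in mouse M116. With each cell given equal weight the difference from control was 0.91 in bright CMs (p = 0.33) and 0.58 in dim CMs, where the mice of the groups then overlapped (p = 0.67, both 2-sided exact permutation tests).

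**Figure D2:**
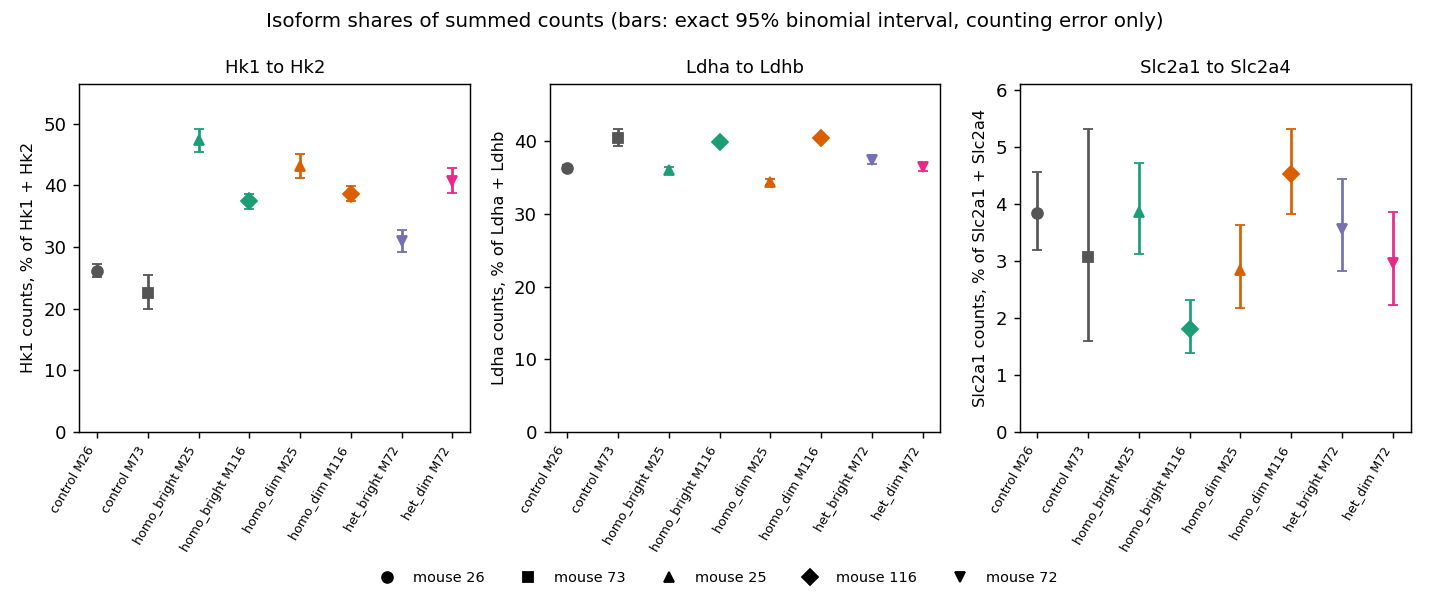
Share of the first gene in the summed counts of each pair (y axes, percent, from 0) in the 8 sums (x axis), with 1 symbol per mouse and exact 95% binomial intervals for counting error of reads. All 4 homozygous Hk1 shares, at 37.4% to 47.3%, lie above the control shares of 26.1% and 22.6%, while Ldha shares overlap and follow the mice, and Slc2a1 shares scatter below 5%.

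The same was seen cell by cell. Among CMs with a count of either hexokinase, the median Hk1 share was 23.8% in mouse M26 and 30.2% in mouse M73. It was 50.4% and 42.7% in bright and 40.4% and 36.2% in dim CMs of mice M25 and M116. Hk1 counts exceeded Hk2 counts in 3 of 21 and 1 of 8 control CMs, in 11 of 19 and 21 of 53 bright CMs, and in 8 of 18 and 17 of 49 dim CMs. The quartiles of the share were 20.1% and 47.3% in mouse M26, 37.2% and 63.1% in bright CMs of M25, and 12.8% and 65.7% in bright CMs of M116, so single CMs of the groups overlapped widely. Across the cells of a sum, the Spearman correlation of Hk1 with Hk2 had no common sign, from -0.27 in mouse M26 to 0.46 in bright CMs of mouse M25, with a mean of 0.04 over 7 sums.

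**Figure D3:**
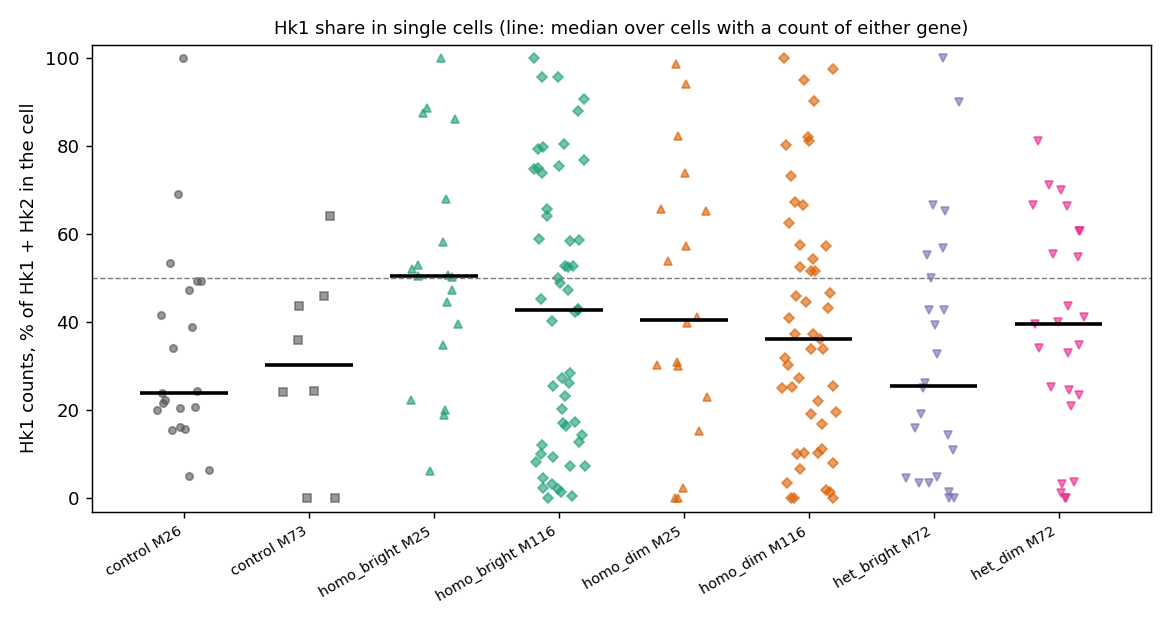
Hk1 counts as a percent of Hk1 plus Hk2 counts in single CMs (y axis) by sum (x axis), where each symbol is a cell with a count of either gene and the black line is the median. The medians of the homozygous sums, 36.2% to 50.4%, lie above those of the control mice, 23.8% and 30.2%, while the cells of all sums overlap.

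Since this pair carried the clearest difference, the promoter windows of both genes (RefSeq, GRCm38.p6, 250 bases before to 50 after each listed start, minus strand of the chromosome, written 5′ to 3′) are shown. Capitals mark ACGTG, the core of the hypoxia response element, and GGGCGG, the GC box, each on either strand. The E-box CACGTG was also searched and contains ACGTG, but none of these windows holds it.
Hk1 promoter, chr10:62340372-62340671: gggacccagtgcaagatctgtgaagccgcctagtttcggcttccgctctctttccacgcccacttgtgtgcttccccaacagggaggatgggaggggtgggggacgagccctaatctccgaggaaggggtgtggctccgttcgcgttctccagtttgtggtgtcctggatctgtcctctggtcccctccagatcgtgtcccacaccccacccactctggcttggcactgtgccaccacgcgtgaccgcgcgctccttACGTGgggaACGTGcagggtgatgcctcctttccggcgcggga
Hk1 promoter, chr10:62379859-62380158: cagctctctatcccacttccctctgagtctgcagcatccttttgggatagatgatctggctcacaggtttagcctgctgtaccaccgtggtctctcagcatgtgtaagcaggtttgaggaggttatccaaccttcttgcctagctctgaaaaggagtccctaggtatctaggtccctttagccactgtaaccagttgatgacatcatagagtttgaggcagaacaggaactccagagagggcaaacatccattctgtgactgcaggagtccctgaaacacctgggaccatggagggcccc
Hk2 promoter, chr6:82774405-82774704: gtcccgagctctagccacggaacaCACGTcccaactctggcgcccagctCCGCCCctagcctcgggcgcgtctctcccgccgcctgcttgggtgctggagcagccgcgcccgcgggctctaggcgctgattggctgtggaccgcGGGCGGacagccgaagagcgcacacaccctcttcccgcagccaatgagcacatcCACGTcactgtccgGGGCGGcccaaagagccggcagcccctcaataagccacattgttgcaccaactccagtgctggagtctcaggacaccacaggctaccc
The Hk1 window that begins at 62379859, the more upstream of the pair on the minus strand, holds neither motif. The other Hk1 window has 2 matches to ACGTG and none to GGGCGG, and the Hk2 window has 2 and 3. Of 32851 promoter windows, 19.6% held ACGTG, 35.7% GGGCGG and 7.15% CACGTG. Among the members, 9 were in the promoter table with 17 windows, and 10 windows of 8 members held ACGTG. The Ldha window at the upstream start had 5 matches to ACGTG, the most of any, and that of Ldhb none. Slc2a4 had no entry.

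Neither glucose transporter was shown to differ. Slc2a4, the insulin-responsive transporter, measured 174 and 109.9 CPM in the control mice M26 and M73, 114 and 74.8 CPM in homo_bright and 110.0 and 78.6 CPM in homo_dim CMs of mice M25 and M116. The groups overlapped, and in each plate series the homozygous mouse lay below its control. The log2 fold change was -0.60 ± 0.40 in bright CMs (adjusted p = 0.91) and -0.61 ± 0.40 in dim CMs (adjusted p = 0.97, both edgeR). Without 1 mouse it ran from -0.90 (without M25) to -0.26 (without control M26) in bright CMs and from -0.89 (without control M73) to -0.24 (without control M26) in dim CMs. Within plate series it was -0.59 and -0.61 in bright and -0.66 and -0.51 in dim CMs.

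Slc2a1 was sparse. It had 619 counts in 33 of 234 CMs, and 7 cells with at least 37 counts each held 304 of them (49.1%). Its normalised level was 6.92 and 3.48 CPM in the control mice, 4.59 and 1.38 CPM in homo_bright and 3.21 and 3.72 CPM in homo_dim CMs. The log2 fold change was -0.83 ± 1.36 in bright and -0.61 ± 1.31 in dim CMs. Between the 2 plates of mouse M116 its level differed by 4.97 on the log2 scale in bright CMs and by -6.58 in dim CMs, whereas those of the other 9 genes differed by -0.38 to 0.79. Endothelial cells also express Slc2a1, and their markers reached 100 CPM in 11 of the 33 CMs with a Slc2a1 count and in 40 of the 201 without. The excess was not limited to them. Fibroblast markers did so in 7 and 24 of these CMs, and pericyte and smooth muscle markers in 6 and 17. Erythroid markers did so in 2 and 4, and immune markers in 1 and 5. The 7 CMs with the most Slc2a1 counts held 44020 to 79080 CPM of CM markers, and 2 of them held over 100 CPM of endothelial markers. Slc2a1 made up 1.81% to 4.52% of Slc2a1 plus Slc2a4 counts over the 8 sums, with both extremes in mouse M116. The log2 ratio was -4.82 ± 0.23 in control, -5.20 ± 0.80 in homo_bright and -4.75 ± 0.49 in homo_dim CMs (SD, n = 2 mice). Bright CMs differed from control by -0.39 (2-sided exact permutation test, p = 1, smallest possible p = 0.33), which is less than the SD of the bright CMs. That difference was -0.78 without cells holding markers of other cell types, -0.13 with equal weight for each cell and -0.18 with thinned cells.

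The enzymes that follow hexokinase were not shown to differ. Pfkm, the muscle phosphofructokinase, stood at 503 and 482 CPM in the control mice, 463 and 417 CPM in homo_bright and 460 and 468 CPM in homo_dim CMs of mice M25 and M116. Both homozygous mice were below both control mice in each class, yet the log2 fold change was only -0.19 ± 0.27 in bright and -0.10 ± 0.29 in dim CMs (adjusted p = 0.96 and 1.0, edgeR). With library size scaling it turned to 0.13 in bright and 0.19 in dim CMs.

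Aldoa, the muscle aldolase and the most abundant member, measured 3954 and 2377 CPM in the control mice, 2818 and 2504 CPM in homo_bright and 3121 and 2559 CPM in homo_dim CMs. All 4 homozygous sums lay between the control mice. Its log2 fold change was -0.27 ± 0.31 in bright and -0.17 ± 0.35 in dim CMs.

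Pgk1, the phosphoglycerate kinase whose promoter drives the Cre of this model, differed most between the control mice, with 268 CPM for M26 and 94.8 CPM for M73. Homo_bright CMs stood at 175 and 196 CPM and homo_dim CMs at 230.0 and 199.6 CPM, all between the controls. The log2 fold change was 0.02 ± 0.50 in bright and 0.23 ± 0.50 in dim CMs. Within plate series the sign turned, from -0.60 in series 1 to 0.98 in series 2 for bright CMs and from -0.22 to 1.04 for dim CMs.

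Pkm, pyruvate kinase of muscle, measured 668 and 509.8 CPM in control, 505 and 555 CPM in homo_bright and 546 and 579 CPM in homo_dim CMs. Its log2 fold change was -0.17 ± 0.28 in bright and -0.08 ± 0.30 in dim CMs. Pkm shares 15.3% of its exon bases with the overlapping gene Gm49759, and Pfkm 10.7% with Senp1 and Gm26513, so part of their reads cannot be assigned with certainty.

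Ldha stood at 1125 and 810.5 CPM in the control mice, 773 and 999 CPM in homo_bright and 854 and 1081 CPM in homo_dim CMs of mice M25 and M116. Ldhb stood at 1974 and 1189 CPM in control, 1372 and 1499 CPM in homo_bright and 1629 and 1594 CPM in homo_dim CMs. The log2 fold change in bright CMs was -0.15 ± 0.29 for Ldha and -0.16 ± 0.31 for Ldhb, and in dim CMs -0.02 ± 0.32 and 0.01 ± 0.34. The groups overlapped for both genes.

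In the sums, the balance of Ldha and Ldhb followed the mice. Ldha supplied 36.3% (95% interval 35.9 to 36.7) and 40.5% (39.4 to 41.7) of Ldha plus Ldhb counts in the control mice M26 and M73. It supplied 36.0% and 40.0% in bright and 34.4% and 40.4% in dim CMs (M25 first). The heterozygous sums stood at 37.5% and 36.5%. In the sums of control and homozygous CMs alike, the mice of plate series 1 were thus below those of series 2. The log2 ratio in bright CMs differed from control by -0.02 overall (2-sided exact permutation test, p = 0.67, smallest possible p = 0.33) and by -0.02 and -0.03 within the plate series. Per coding length, Ldhb made up the larger part in every sum, since Ldha reached 26.5% to 31.9%. In single CMs, Ldha counts exceeded Ldhb counts in 0 to 25% of cells per sum. The median Ldha share per cell was 37.9% in M26 and 28.8% in M73, so the control mice had the reverse order there. It was 38.2% and 40.4% in bright and 31.9% and 40.0% in dim CMs (M25 first). The processed pseudogene Gm5514, near identical to Ldhb, held 2095 counts, equal to 0.808% of those of Ldhb. Adding them left the difference at -0.02. Without the cells that held markers of other cell types, which took 5 of the 9 CMs of mouse M73, the ratio differed from control by -0.32 in bright and by -0.42 in dim CMs (2-sided exact permutation test, p = 0.67 in each). Near copies of the other members held at most 0.970% of a member's counts, and none was found for Hk1, Hk2, Slc2a1 or Slc2a4.

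**Figure D4:**
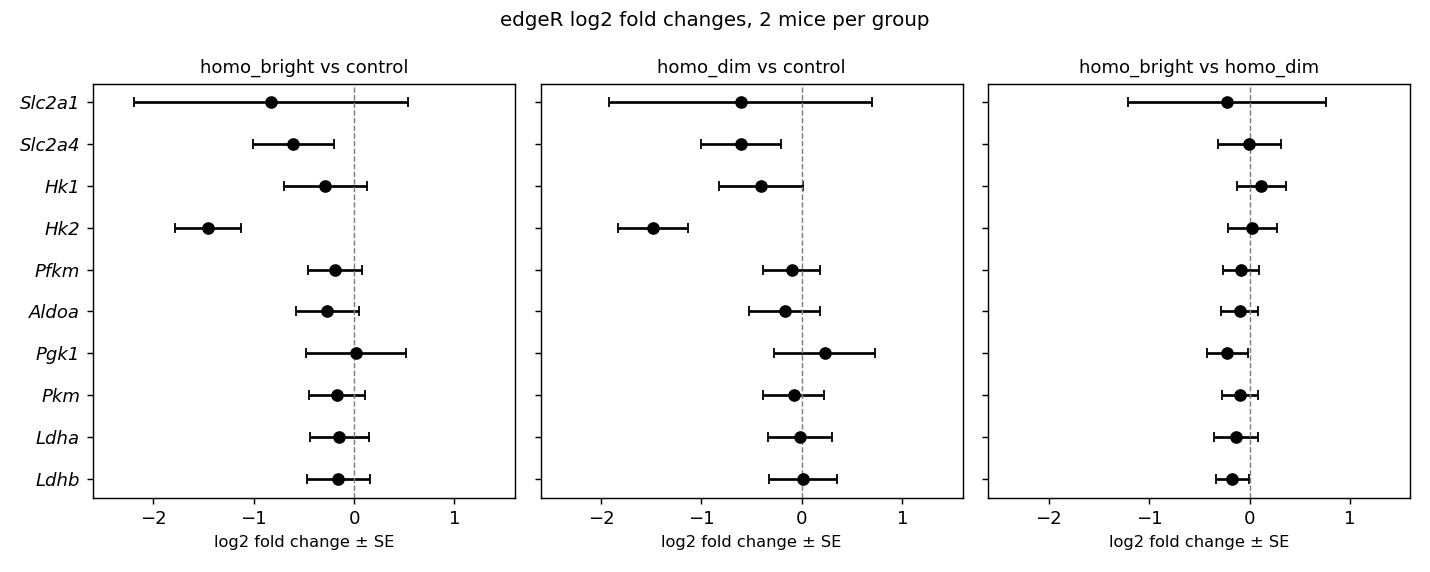
Log2 fold change (x axis) ± SE of each gene (y axis) in the 3 comparisons, from edgeR on 2 mice per group. Hk2 is the only gene whose bar stays clear of 0 by several SE against control, at -1.45 ± 0.33 and -1.48 ± 0.35, and no bar does so between bright and dim CMs.

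Over the 10 genes, 9 had a log2 fold change below 0 in homo_bright and 8 in homo_dim against control CMs, with medians of -0.23 and -0.14. The medians over all genes tested were 0.11 and 0.10. In bright CMs 2 members (Hk2 and Pfkm) had both mice below both control mice, where 14.3% of all genes did, and 0 had both above, where 24.6% did. In dim CMs 3 members (Hk1, Hk2 and Pfkm) had both mice below, against 13.7% of all genes, and 0 had both above, against 24.1%. Scaling to library size raised the median over all genes to 0.41 in bright CMs and left 3 of 10 members below 0, with Hk2 among them at -1.13. In dim CMs it raised that median to 0.38 and left 4 of 10 below 0. With equal weight for each cell, 4 of 10 members were below 0 in both comparisons, beside medians over all genes of 0.49 and 0.49.

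The sign of 5 members, Aldoa, Pgk1, Pkm, Ldha and Ldhb, turned between the plate series in bright CMs, while Hk2, Slc2a4, Slc2a1, Hk1 and Pfkm were below 0 in both. In series 1 all 10 members were lower in bright CMs than in control, with a median of -0.52. In series 2 they split 5 and 5, with a median of -0.06. The median over all genes was 0.01 and 0.42. Ldha went from -0.53 to 0.24, Ldhb from -0.51 to 0.28, Aldoa from -0.48 to 0.02 and Pkm from -0.39 to 0.06. Hk1 stood at -0.39 and -0.14, Pfkm at -0.11 and -0.27, and the sparse Slc2a1 at -0.53 and -1.13. Each series holds 1 control and 1 homozygous mouse, so series and mouse cannot be told apart. Mouse M73, the control of series 2, also had the fewest cells and counts.

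**Figure D5:**
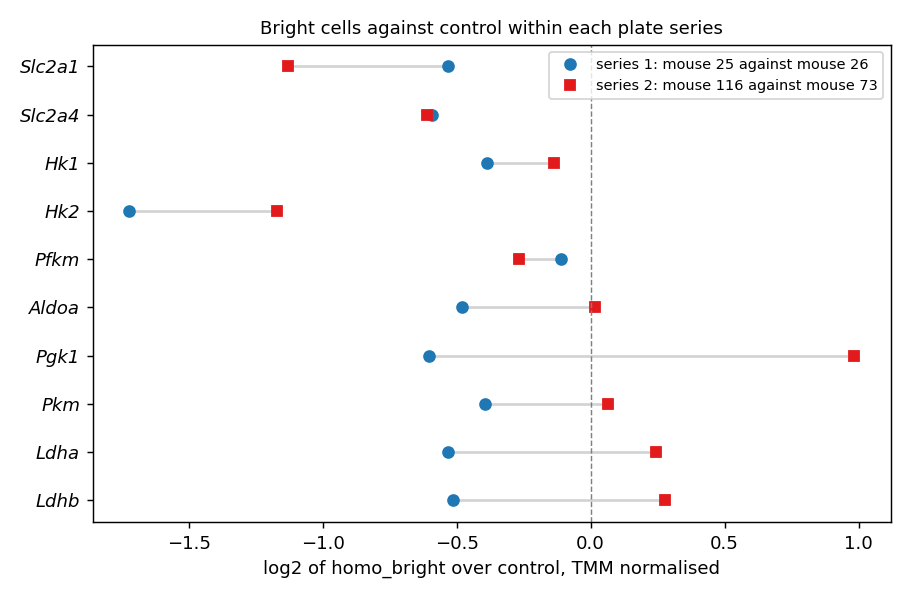
Log2 difference between homo_bright and control CMs (x axis) for each gene (y axis) within plate series 1 (circles, mouse M25 against mouse M26) and series 2 (squares, mouse M116 against mouse M73). Hk2 lies below 0 in both at -1.72 and -1.17, whereas Pgk1 turns from -0.60 to 0.98.

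Bright and dim CMs of the same homozygous mice were compared to ask whether the genes follow transgene brightness within a heart. No member had an unadjusted p under 0.05, and edgeR called 0 of 13439 genes (0%) after adjustment, with 554 genes at an unadjusted p under 0.05 and 91 called by DESeq2. The log2 difference of Hk2 was 0.03 ± 0.24 and that of Hk1 0.12 ± 0.25. Aldoa, Pgk1, Pkm, Ldha and Ldhb were lower in the bright CMs of both mice, 5 members of 10, where 25% of all genes were. Hk2 was higher in both, where 25.8% were. The differences of these 5 genes were small, from -0.22 ± 0.20 for Pgk1 and -0.17 ± 0.17 for Ldhb to -0.10 ± 0.18 for Pkm. Of the 8 CM markers, 3 were also lower in both mice and 0 higher. Every tested endothelial, pericyte and smooth muscle, immune and erythroid marker was lower too, while fibroblast markers were not. Without cells holding markers of other cell types, the member median moved from -0.098 (8 of 10 below 0) to -0.018 (6 of 10). The part of other cell types was not tested. The p-values and SEs of this comparison come from a fit that does not pair the classes of a mouse. With the mouse as a replicate block edgeR also called 0 genes, and the member median was -0.096, with 8 of 10 below 0.

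Mouse M72 gave values without replication. Hk2 stood at 139 CPM in the CMs labelled het_bright and 93.9 CPM in those labelled het_dim, below both control mice and above the homozygous sums. The Hk1 share was 31.02% (29.3 to 32.8) and 40.7% (38.7 to 42.8), above both control shares, and the first was below all 4 homozygous shares. Hk1 itself was at 62.4 and 64.6 CPM. Slc2a4 measured 157 and 124 CPM, within the control range, and Slc2a1 5.78 and 3.79 CPM. Pfkm measured 450 and 350.0 CPM, Aldoa 2110 and 2072 CPM, Pgk1 138 and 179 CPM, and Pkm 457 and 384 CPM. Ldha measured 782 and 698 CPM, and Ldhb 1303 and 1216 CPM. Hk2, Pfkm, Aldoa, Pkm and Ldha, 5 members of 10, were below both control mice in both classes, where 11.1% of 16615 genes were. Since human BAG3 reads were more frequent in the CMs labelled dim, no direction with brightness was drawn from this mouse.

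The rest of the pathway was read from 5 lists of genes. In homo_bright against control CMs, edgeR called 0 of the 67 genes tested from these lists after adjustment, and DESeq2 called 1, Ppargc1a, as lower. In homo_dim CMs, edgeR called 0 of 68, and DESeq2 again called Ppargc1a alone. In bright CMs, of 17 other glycolytic enzymes, 12 were tested, with 5 log2 fold changes above and 7 below 0 and a median of -0.17. Of 12 genes of glucose transport and its control, 11 were tested, 5 above and 6 below 0 (median -0.09). Of 19 genes of pyruvate and lactate handling all were tested, 8 above and 11 below (median -0.17). Of 15 genes of glycogen metabolism 14 were tested, 6 above and 8 below (median -0.06), and of 14 regulators 11 were tested, 5 above and 6 below (median -0.16). At an unadjusted p under 0.05, 2 genes of these lists were higher in bright CMs, where 4.7% of all genes were, and 4 were lower, where 1.85% were. In dim CMs 1 was higher, where 4.4% of all genes were, and 2 were lower, where 1.83% were. The medians of the lists in dim CMs were 0.02 for the enzymes (6 above and 6 below 0), 0.03 for transport (7 and 4), -0.05 for pyruvate and lactate (9 and 10), -0.07 for glycogen (4 and 11) and -0.49 for the regulators (3 and 8).

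The extremes of these lists in bright CMs were mostly sparse genes. Eno2, the neuronal enolase, had 0 counts in both control sums and 129 in the homo_bright sums, at least 14.2-fold higher against a floor of 3 counts over the group. Tbc1d1, a Rab regulator of transporter traffic, had 16 and 0 counts in control and 177 and 502 in bright CMs (4.25 ± 1.69). Irs1, the insulin receptor substrate, gave -0.76 ± 0.93. Ldhd, the D-lactate dehydrogenase, gave -2.66 ± 1.17, and Pdk3, a kinase that inhibits pyruvate dehydrogenase, 3.26 ± 1.93. Phka1 and Phkg1, subunits of phosphorylase kinase, gave -1.16 ± 0.58 and 1.46 ± 1.76. Egln3, an oxygen-sensing prolyl hydroxylase, was lowest among the regulators at -2.22 ± 0.61 (unadjusted p = 0.010, adjusted p = 0.66, edgeR), and Myc highest at 2.55 ± 1.79.

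Egln3 measured 80.6 and 42.3 CPM in control, 17.0 and 9.81 CPM in bright and 16.6 and 10.7 CPM in dim CMs, with no overlap between homozygous and control mice. The following 3 genes were chosen after their values were seen, as the others of these lists with an unadjusted p under 0.05 and a lower level in bright CMs. Ppargc1a, the coactivator PGC-1α that drives mitochondrial genes, measured 944 and 1020 CPM in control and 227 and 227 CPM in bright CMs, and 303 and 325 CPM in dim CMs. Its log2 fold change was -2.14 ± 0.27 in bright and -1.66 ± 0.29 in dim CMs (adjusted p = 0.49 and 0.73, edgeR). Over the alternatives the adjusted p ran from 2.02e-06 (DESeq2) to 0.896 in bright and from 0.00108 to 1 in dim CMs, and with plate series as a block it was 0.013 and 0.011. Within the series the log2 difference was -2.04 and -2.22 in bright and -1.64 and -1.68 in dim CMs. Pdp2, a phosphatase that activates pyruvate dehydrogenase, gave -2.33 ± 0.70, and Ppp1r3a, the muscle glycogen-targeting subunit of protein phosphatase 1, -0.88 ± 0.33 in bright CMs.

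Across single CMs the members were only loosely linked. Over 7 sums with at least 15 cells, the mean Spearman correlation between pairs of the 9 members that were detected widely enough had a median of 0.12, against 0.04 between members and all 3784 genes compared. These are descriptions, since cells of a sum share a mouse and its plates and differ widely in depth. The highest was Aldoa with Ldha at 0.42, positive in 7 of 7 sums, and the lowest Hk1 with Pfkm at -0.09. The genes most like each member by this measure were Gm5514 (0.56) and Timm23 (0.37) for Ldhb, Atp5a1 (0.43) and Ldha (0.42) for Aldoa, and Aldoa (0.42) and Hspb6 (0.33) for Ldha. For Pkm they were Pcp4l1 (0.34) and Cuedc2 (0.31), for Pfkm Mdh1 (0.32) and Slc25a4 (0.29), and for Pgk1 Rnf7 (0.31) and Auh (0.30). For Slc2a4 they were Tdpx-ps1 (0.33) and Dpf2 (0.30), for Hk1 Copb2 (0.29) and Zwint (0.28), and for Hk2 Nr3c1 (0.31) and Rbpms2 (0.30). Gm5514 is the near copy of Ldhb named above.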

How the data were processed

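Counts per gene were deposited by the authors as 1 table of raw read counts for 234 single CMs. Per the study's methods, reads were aligned with STAR, which also counted reads per gene, against a mouse reference to which the human BAG3 and eGFP sequences had been added. Genome build, annotation release and strand setting were not given in the sources used here. The 55536 mouse rows equal the gene number of GENCODE M21, which was used for lengths and overlaps. Counts were summed per mouse and brightness class, since the animal is the replicate and cells are not. The low-count filter and TMM factors of edgeR 4.0.16 were applied, and glmQLFit and glmQLFTest were run on the groups compared, with Benjamini-Hochberg adjustment over all genes tested. DESeq2 1.42.0 and, for mean levels with equal weight per cell, limma 3.58.1 were alternatives in R 4.3.3. Isoform ratios were compared by exact permutation over mice. Per the labels, cells with little cDNA were left out before library preparation. SMART-seq2 has no molecular identifiers, so amplified copies of a molecule count as separate reads. The intervals take reads as independent and cover the counting error of reads only, not that of molecules or the spread between cells and mice. The edgeR, DESeq2 and limma p-values rest on 2 mice per group and on variance estimates moderated across genes. They are thus not a measure of the spread between the mice for each gene alone. Alternatives covered the tool, the scaling, the filter, the cells used and their weight, the plate series, the pairing and each mouse left out.

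Named genes were the 10 members, in each other list any gene past the threshold and the tested genes with the highest and lowest log2 fold change in homo_bright CMs, and for each member the 2 genes most like it. The members and lists were chosen with earlier results of these data known. Bright and dim CMs are paired because they come from the same mice. Their deviations from the class means correlated at 0.0754 (Pearson) over 13439 genes. The steps were tested on simulated data. A result that the rule for named genes selects is not reported here.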

Additional observations from a re-analysis of the deposited data

Results flagged for a closer look

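Among the 10 members and the named genes of the pathway lists with counts in every transgenic sum, 8 had a log2 of CMs labelled bright over CMs labelled dim whose sign in the heterozygous mouse was opposite to that in both homozygous mice. In mouse M72 it was 0.027 for Aldoa, 0.25 for Pkm, 0.16 for Ldha, 0.10 for Ldhb, 0.59 for Phka1, 0.24 for Ppargc1a, 0.31 for Pdp2 and -0.23 for Myc, which had only 4 and 5 counts there. In mice M25 and M116 it was -0.15 and -0.03 for Aldoa, -0.11 and -0.06 for Pkm, -0.14 and -0.11 for Ldha, -0.25 and -0.09 for Ldhb, -0.42 and -0.55 for Phka1, -0.42 and -0.52 for Ppargc1a, -1.07 and -0.70 for Pdp2, and 0.15 and 1.21 for Myc. The difference between the genotypes was not tested, as mouse M72 is the only heterozygous animal. The share of all genes with this sign pattern was not determined, so no result about these genes is read from the count of 8. Human BAG3 reads in mouse M72 were more frequent in the CMs labelled dim (251 CPM) than in those labelled bright (105 CPM). Ordered by these reads in place of the labels, the sign in mouse M72 is reversed for every gene. For the 8 genes it is then that of both homozygous mice, which follows from how they were chosen. Hk2 (0.04, 0.03 and 0.56 in M25, M116 and M72), Pgk1 (-0.40, -0.03 and -0.37) and Phkg1 (-2.23, -0.30 and -2.28) would then become opposite. The reversal thus cannot decide between labels and reads, and no direction with brightness is drawn from mouse M72.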

How the results depend on the processing

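The lower Hk2 level and the higher Hk1 to Hk2 ratio in homozygous CMs kept their direction against control under every alternative run, although with equal weight for each cell the ratio in dim CMs fell to 0.58 and the mice of the groups overlapped, and the members called by edgeR stayed at 0 except with DESeq2, which called 1 member (Hk2) in bright and 1 in dim CMs. The legacy quasi-likelihood fit is the default of the edgeR version used and equals the reported fit. The bias-adjusted fit, the removal of cells with markers of other cell types, and the ratios for dim CMs and for bright against dim CMs were chosen after seeing the data. With the mouse as a replicate block no call changed. Leaving 1 mouse of a group out assumes that the remaining mouse varies like the other group, and for bright against dim CMs it leaves a value with no test. Over all genes, calls in bright CMs went from 2 to 92 with DESeq2, 163 without the filter, 10 with the plate series block, 0 with equal weight, 1 with the bias-adjusted fit, 0 without control mouse M26, 15 without homo_bright mouse M25 and 41 without homo_bright mouse M116. In dim CMs they went from 0 to 53 with DESeq2, 58 without the filter, 12 with the plate series block, 827 without control mouse M26, 3 without control mouse M73, 10 without homo_dim mouse M25 and 8 without homo_dim mouse M116, and between bright and dim from 0 to 91 with DESeq2 and 217 without the filter.

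The small differences turned sign readily, and except where a setting removes cells or mice the cause was not tested. In bright against control CMs, library size gave 0.016 for Hk1, 0.13 for Pfkm, 0.033 for Aldoa, 0.14 for Pkm, 0.17 for Ldha and 0.15 for Ldhb. Equal weight gave 0.26 for Pfkm, 0.060 for Aldoa, 0.20 for Pkm, 0.28 for Ldha and 0.30 for Ldhb. The bias-adjusted fit gave -0.026 for Pgk1, and the removal of marker cells 0.031 for Hk1. Leaving out 1 mouse gave -0.53 to 0.039 for Hk1, -0.56 to 0.12 for Aldoa, -0.52 to 0.93 for Pgk1, -0.33 to 0.018 for Pkm, -0.35 to 0.090 for Ldha and -0.45 to 0.23 for Ldhb. In dim against control CMs, library size gave 0.19 for Pfkm, 0.10 for Aldoa, 0.21 for Pkm and 0.27 for Ldha, and equal weight 0.29, 0.20, 0.34 and 0.48 for the same genes. DESeq2 gave -0.0071 for Ldhb and the absence of a filter 0.022 for Ldha. Leaving out 1 mouse gave -0.48 to 0.24 for Aldoa, -0.32 to 1.16 for Pgk1, -0.25 to 0.13 for Pkm, -0.22 to 0.24 for Ldha and -0.30 to 0.42 for Ldhb. In bright against dim CMs, Slc2a4 was 0.0089 with DESeq2, 0.024 with library size, 0.0029 without the filter and 0.19 without marker cells, Hk2 was -0.25 with equal weight and Slc2a1 was 0.73 without marker cells. Leaving out 1 mouse gave -0.065 to 0.28 for Hk1, -1.19 to 0.46 for Slc2a1, -0.085 to 0.053 for Slc2a4 and -0.18 to 0.0057 for Pfkm.

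The Hk1 to Hk2 ratio between bright and dim CMs was -0.049 with thinned cells and -0.079 to 0.24 without 1 mouse. The differences from control for that pair were 0.89 to 1.48 in bright and 0.97 to 1.25 in dim CMs without 1 mouse. The Ldha to Ldhb ratio without 1 mouse ran from -0.15 to 0.10 in bright and from -0.25 to 0.12 in dim CMs against control, and from -0.026 to 0.10 between bright and dim CMs. It moved farther without marker cells, to -0.32 in bright and -0.42 in dim CMs against control. The Slc2a1 to Slc2a4 ratio without 1 mouse ran from -0.95 to 0.18 in bright and from -0.28 to 0.41 in dim CMs against control, and from -1.36 to 0.46 between bright and dim CMs. In dim CMs it was -0.31 with thinned cells and -0.78 without marker cells (exact permutation p = 0.33, the smallest possible), and between bright and dim CMs 0.13 and 0.00085. Slc2a1 had 12 to 140 counts per sum, and its log2 fold changes had SEs of 0.98 to 1.36.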
